A study of Mus musculus with 6 samples.

Results

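The TAM receptors and the ligands of efferocytosis are a set of 6 genes: the receptors Mertk, Axl and Tyro3, and the secreted ligands Gas6, Pros1 and Mfge8. They were taken by gene name from the deposited annotation of 25032 genes with a read, within a count table of 55359 mouse genes, and compared between the libraries labelled TDP43-NLS and those labelled GFP. The genes were chosen by name with their read counts and FPKM in this comparison already known. The differences of the members are therefore given below as a description. Whether a member was called is stated in places, but nothing is read from such a call. No p-value is printed for a member. By name, 5 of the 6 genes were found in the annotation. Tyro3 was not among the genes with a read, and its identifier, taken from a gene name table, has 0 reads in each of the 6 libraries.

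Efferocytosis is the uptake of dying cells by phagocytes. A dying cell exposes phosphatidylserine on its surface. Gas6 and protein S, the product of Pros1, bind this lipid through a domain that has to be carboxylated with the help of vitamin K, and bridge it to the TAM receptors, a family of receptor tyrosine kinases. Gas6 binds every TAM receptor, and protein S binds Tyro3 and Mertk. Mfge8, also called lactadherin, works beside them: it binds phosphatidylserine through discoidin domains and is recognised by integrins, not by TAM receptors. In macrophages and microglia, TAM signalling also restrains Toll-like receptor and cytokine responses, partly through interferon receptors and SOCS proteins.

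The data are RNA sequencing of BV2 cells. BV2 is an immortalised mouse line made from microglia, which are the phagocytes of the brain. In 3 libraries the cells overexpressed TDP43-NLS, a form of the RNA-binding protein TDP-43 given as NLSmut in the series' design text (NLS is the common abbreviation of nuclear localisation signal), and in the other 3 they overexpressed GFP. All were grown in the same serum-containing medium. The labels name no dose, time or promoter and do not say whether libraries of a group came from separate cultures, so the spread between them may be technical. Fetal bovine serum was part of the medium of both groups, and serum is itself a source of protein S. These data measure only transcripts.

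Totals ran from 15062131 to 18005592 counted reads in the TDP43-NLS libraries and from 15361351 to 17367688 in the GFP libraries. Tardbp, the mouse gene for TDP-43, had 377 ± 9.62 CPM in the libraries labelled TDP43-NLS and 451 ± 24.0 CPM in the libraries labelled GFP (SD, n = 3 each). Its log2 fold change was -0.26, with 0.05 as the standard error. The construct itself has no row in the table, so the groups are called by their labels and every direction rests on these. CPM are read counts scaled to library size with edgeR's TMM factors, and FPKM are the deposited length- and depth-scaled values. All 14 markers of microglia and macrophages were tested, with summed levels of 5106 to 5286 CPM in the TDP43-NLS libraries and 4273 to 4374 CPM in the GFP libraries. Of other cell types, 5 of 6 neuronal markers had 0 reads in every library, and the fibroblast markers summed to at most 0.135 CPM in the TDP43-NLS libraries and 0.118 CPM in the GFP libraries, with Col3a1 and Dcn at 0. The T cell markers summed to 5.76 to 6.61 CPM in the TDP43-NLS libraries and 11.95 to 14.2 CPM in the GFP libraries, with Cd3e and Cd8a at 0 in all of them. The astrocyte markers reached at most 0.955 and 1.35 CPM, the oligodendrocyte markers 5.33 and 5.33 CPM and the endothelial markers 2.87 and 0.902 CPM in the TDP43-NLS and the GFP libraries, with Aqp4, Mog and Tie1 at 0. The part of these differences in the results below was not tested.

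Mertk, Axl and Pros1 were lower in the libraries labelled TDP43-NLS, while Mfge8 differed little. Any link between promoter letters and these levels was not tested. The promoter windows of the 4 members that could be tested are shown first. Each runs 5′ to 3′ on the gene's own strand, with 250 bases before the annotated start and 50 after it, from RefSeq on GRCm38.p6. This is an earlier build than the GRCm39 of the gene positions given further on. Capitals mark the letters GGGCGG or their reverse complement CCGCCC, the GC box to which factors of the Sp1 family bind.
Mertk (chr2:128698665-128698964, plus strand): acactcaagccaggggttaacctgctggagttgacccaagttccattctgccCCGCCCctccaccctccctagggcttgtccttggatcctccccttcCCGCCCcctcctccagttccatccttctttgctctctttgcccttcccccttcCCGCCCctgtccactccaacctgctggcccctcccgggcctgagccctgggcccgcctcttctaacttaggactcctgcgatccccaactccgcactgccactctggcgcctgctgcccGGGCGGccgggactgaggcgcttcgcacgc
Axl (chr7:25788684-25788983, minus strand): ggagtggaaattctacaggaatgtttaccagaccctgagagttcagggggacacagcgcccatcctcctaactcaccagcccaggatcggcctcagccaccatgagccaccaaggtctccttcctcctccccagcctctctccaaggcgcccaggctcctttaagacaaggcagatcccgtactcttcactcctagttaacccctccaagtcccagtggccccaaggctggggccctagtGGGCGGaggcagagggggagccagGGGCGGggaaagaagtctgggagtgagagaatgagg
Pros1 (chr16:62854057-62854356, plus strand): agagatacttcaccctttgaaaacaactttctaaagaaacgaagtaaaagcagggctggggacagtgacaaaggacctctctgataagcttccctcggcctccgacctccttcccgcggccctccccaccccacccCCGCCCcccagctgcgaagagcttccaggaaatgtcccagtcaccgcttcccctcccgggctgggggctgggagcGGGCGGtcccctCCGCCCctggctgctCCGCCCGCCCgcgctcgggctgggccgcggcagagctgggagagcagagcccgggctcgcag
Mfge8 (chr7:79149011-79149310, minus strand): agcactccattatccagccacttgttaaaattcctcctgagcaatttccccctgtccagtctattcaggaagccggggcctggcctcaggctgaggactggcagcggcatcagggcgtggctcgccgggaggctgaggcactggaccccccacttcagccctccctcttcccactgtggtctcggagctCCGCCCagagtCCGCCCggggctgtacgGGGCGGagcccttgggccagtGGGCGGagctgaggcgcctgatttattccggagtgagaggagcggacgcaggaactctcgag

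All 6 genes have such a window, and all 6 windows hold a GC box. Mertk has 4, Axl 2, Tyro3 6, Gas6 4, Pros1 5 and Mfge8 4. Windows of the same length hold it in 35.7% of 32851 RefSeq promoters, and in 63.6% of the 9507 promoters that could be matched by name to a tested gene. None of the 6 windows holds TATAAA, the TATA box, which is in 6.86% of the promoters of tested genes. The GC content of the windows is 66.0% for Mertk, 60.3% for Axl, 73.3% for Tyro3, 58.3% for Gas6, 66.7% for Pros1 and 64.3% for Mfge8, against a median of 60.7% for tested genes. Axl stands apart in its CpG dinucleotides, with 6 in the window. The others have 14 to 31, and the median of tested genes is 21.

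Other letters were searched on both strands of the same windows. The NF-kB pattern, GGGA and CC with any 4 bases between them, occurs in Mertk (2 matches), Axl (1) and Pros1 (1), but in none of Tyro3, Gas6 and Mfge8, and in 25.9% of the promoters of tested genes. The Pros1 match overlaps its second GC box. The STAT pattern TTCNNNGAA occurs in Pros1 alone among the 6, and in 6.92% of the promoters of tested genes. GAGGAA, a core that the myeloid factor PU.1 binds, occurs in Axl and Mfge8 and in 27.0% of these promoters. The AP-1 pattern TGANTCA (5.04% of the promoters of tested genes), the nuclear receptor half-site AGGTCA (12.2%), the interferon response pattern, GAAA and GAAA with any 2 bases between them (3.20%), and the E-box CACGTG (10.4%) occur in none of the 6 windows. These are matches of letters within 300 bases and say nothing of binding or of the levels of the genes.

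Among the receptors, Mertk carried most of the transcripts and stood far lower in the libraries labelled TDP43-NLS. Mertk (ENSMUSG00000014361, GRCm39 chromosome 2, 128540876 to 128644814, plus strand) is a TAM receptor through which macrophages and microglia clear dying cells. Its reads numbered 47, 63 and 66 in the TDP43-NLS libraries and 422, 493 and 469 in the GFP libraries. Per length this was 0.720, 0.807 and 0.864 FPKM in the TDP43-NLS libraries, against 6.34, 6.82 and 6.23 FPKM in the GFP libraries. The highest TDP43-NLS library thus lay far below the lowest GFP library, and the spread within a group was small beside the gap. The mean was 3.50 ± 0.317 CPM in the TDP43-NLS libraries and 27.7 ± 1.30 CPM in the GFP libraries (SD, n = 3 each), so that 12.7% of the GFP level was measured. The fitted log2 fold change was -2.97 with a standard error of 0.09, the 74th lowest of 13199 tested genes. In such bulk samples, fewer cells with Mertk and less Mertk RNA per cell cannot be told apart. The gene Gm14011 lies within Mertk on the other strand, and a small nucleolar RNA gene lies within it on the same strand. Each of these was counted 0 times in the TDP43-NLS libraries and 1 time in the GFP libraries, and without a strand mark their reads and those of Mertk cannot be told apart where they overlap.

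Axl was a minor receptor transcript in both groups. Axl (ENSMUSG00000002602, GRCm39 chromosome 7, 25456698 to 25488130, minus strand) is the TAM receptor with the highest affinity for Gas6 and is known for its induction in inflamed phagocytes. Its reads numbered 0, 3 and 2 in the TDP43-NLS libraries and 19, 40 and 33 in the GFP libraries. The groups did not overlap, and the GFP libraries differed among themselves, from 0.246 FPKM in GFP replicate 1 to 0.477 FPKM in GFP replicate 2. The mean was 0.0946 ± 0.0862 CPM in the TDP43-NLS libraries and 1.82 ± 0.574 CPM in the GFP libraries (SD, n = 3 each). The fitted log2 fold change was -4.10 with a standard error of 0.50. Without TDP43-NLS replicate 2, which holds 3 of the 5 reads of its group, it was -4.72. From the summed reads, 5 in the TDP43-NLS libraries and 92 in the GFP libraries, the ratio of TDP43-NLS to GFP was 0.0543 with a 95% exact binomial interval of 0.0172 to 0.131. This interval covers counting error only.

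Tyro3, the TAM receptor best known from neurons, was not detected. Its 0 reads in each library allow a level of up to 0.0300 CPM over all 6 libraries, or 0.0600 CPM over the 3 libraries of a group, taking 3 reads as the limit for a count of 0. No fold change can be given for it.

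The summed FPKM of the receptors show the combined pool. It was 0.720, 0.840 and 0.887 FPKM in the TDP43-NLS libraries, against 6.58, 7.30 and 6.61 FPKM in the GFP libraries. Mertk made up 97.8% ± 2.00 of it in the TDP43-NLS libraries and 94.7% ± 1.44 in the GFP libraries, and Axl 2.16% ± 2.00 and 5.33% ± 1.44 (SD, n = 3 each). The ranges of the Mertk share overlapped, from 96.1% to 100% in the TDP43-NLS libraries and from 93.5% to 96.3% in the GFP libraries. The pool was thus mostly Mertk in both groups, and its size differed far more than its make-up.

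**Figure D1:**
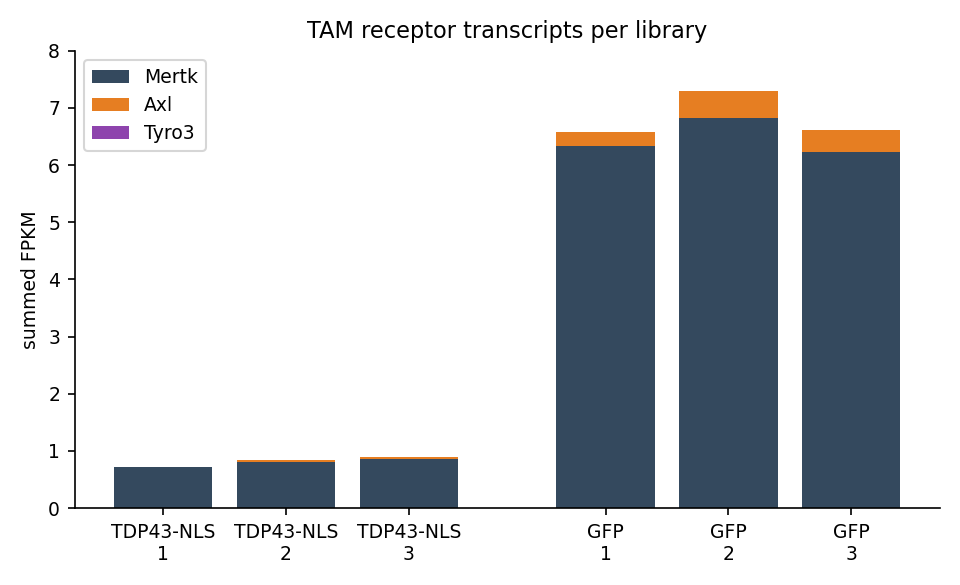
Summed FPKM of Mertk, Axl and Tyro3 in each library, with the 3 TDP43-NLS libraries at the left and the 3 GFP libraries at the right. The TDP43-NLS bars end between 0.720 and 0.887 FPKM and the GFP bars between 6.58 and 7.30 FPKM, and nearly all of each bar is Mertk, with Tyro3 at 0.

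Of the TAM ligands, Pros1 had reads in the GFP libraries only. Pros1 (ENSMUSG00000022912, GRCm39 chromosome 16, 62674670 to 62749709, plus strand) encodes protein S, which is also an anticoagulant in plasma. Its reads numbered 0, 0 and 0 in the TDP43-NLS libraries and 30, 24 and 32 in the GFP libraries. In FPKM this was 0 in each TDP43-NLS library, against 0.478, 0.352 and 0.451 in the GFP libraries. The GFP libraries held between them 86 reads, a mean of 1.73 ± 0.270 CPM (SD, n = 3). Taking 3 reads over the whole TDP43-NLS group as the limit, or 0.0600 CPM, the measured GFP level was 28.7-fold above it. This limit covers counting error in the TDP43-NLS libraries only, so the value is no strict bound. Its absolute level was low in the GFP libraries too.

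Gas6, the ligand for every TAM receptor, was at the edge of detection. Gas6 (ENSMUSG00000031451, GRCm39 chromosome 8, 13515374 to 13544490, minus strand) was counted 1, 0 and 0 times in the TDP43-NLS libraries and 1, 0 and 1 in the GFP libraries. No direction can be read from these 3 reads: the ratio of TDP43-NLS to GFP was 0.4998, with an exact binomial interval of 0.00847 to 9.60 that covers counting error only. Gas6 and Tyro3 did not pass the filter on low counts and were not tested.

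Mfge8 stood apart as an abundant transcript whose level differed little. Mfge8 (ENSMUSG00000030605, GRCm39 chromosome 7, 78783516 to 78798808, minus strand) was counted 7218, 8535 and 8296 times in the TDP43-NLS libraries and 7774, 8532 and 8915 in the GFP libraries. This was 102, 101 and 100.4 FPKM in the TDP43-NLS libraries, against 108, 109 and 109 FPKM in the GFP libraries. All 3 TDP43-NLS libraries lay below all 3 GFP libraries, by a small margin. The mean was 481 ± 4.79 CPM in the TDP43-NLS libraries and 505 ± 3.87 CPM in the GFP libraries (SD, n = 3 each). The fitted log2 fold change was -0.07, with 0.04 as the standard error, and Mfge8 was not called. With library totals as the scaling it was -0.10 and called lower. Mfge8 ranked 471st by mean FPKM in the TDP43-NLS libraries and 427th in the GFP libraries among 25032 genes. The ratio of Mfge8 to Mertk FPKM was 142, 125 and 116 in the TDP43-NLS libraries and 17.0, 16.0 and 17.6 in the GFP libraries, a gap that lies mostly in the Mertk values.

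**Figure D2:**
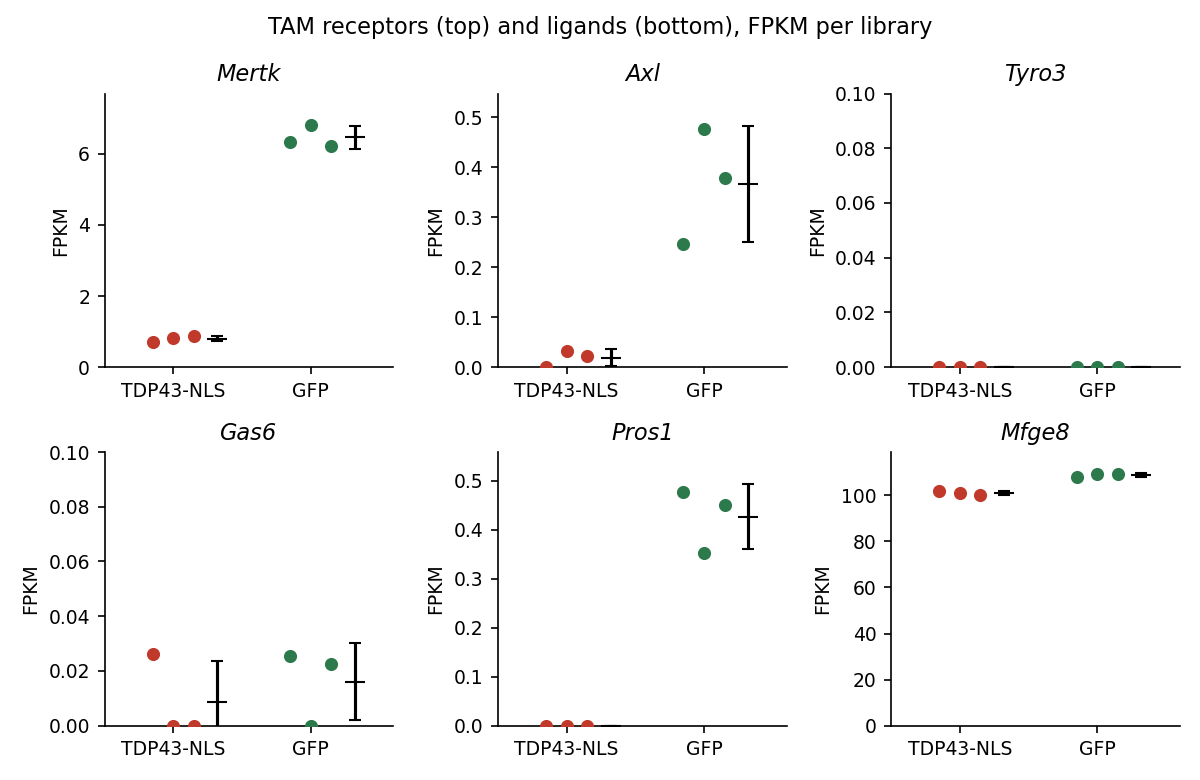
FPKM of the 6 genes in each library (points, with TDP43-NLS at the left of each panel and GFP at the right), with the mean and SD over 3 libraries as bars beside them and a separate linear axis from 0 for each gene. Mertk, Axl and Pros1 have all TDP43-NLS points below all GFP points, Mfge8 lies between 100.4 and 109 FPKM in every library, and Gas6 and Tyro3 are at or near 0.

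By length-scaled level the order of the genes was steep. In the TDP43-NLS libraries Mfge8 averaged 101 FPKM, Mertk 0.797, Axl 0.0186, Gas6 0.00869 and Pros1 and Tyro3 0. In the GFP libraries Mfge8 averaged 109 FPKM, Mertk 6.46, Pros1 0.427, Axl 0.367, Gas6 0.0160 and Tyro3 0. The neighbours Axl and Gas6 in the TDP43-NLS libraries, and Pros1 and Axl in the GFP libraries, did not differ beyond their spread.

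Of the 4 members that were tested, 3 were called lower by edgeR's quasi-likelihood test (Benjamini-Hochberg adjusted p under 0.05 over all 13199 tested genes) and 1, Mfge8, was not called. None of the 4 was called higher. Over all tested genes 28.2% were called lower, 29.3% higher and 57.5% in either direction. The groups did not overlap for 4 of these 4 members, against 63.2% of all tested genes. Because the members were proposed from this contrast, nothing is read from these counts. Axl and Pros1 reached 10 reads in no TDP43-NLS library and passed the filter through the GFP libraries alone, so they could only appear as lower. A fitted log2 fold change below -1 was found in 3.69% of tested genes.

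**Figure D3:**
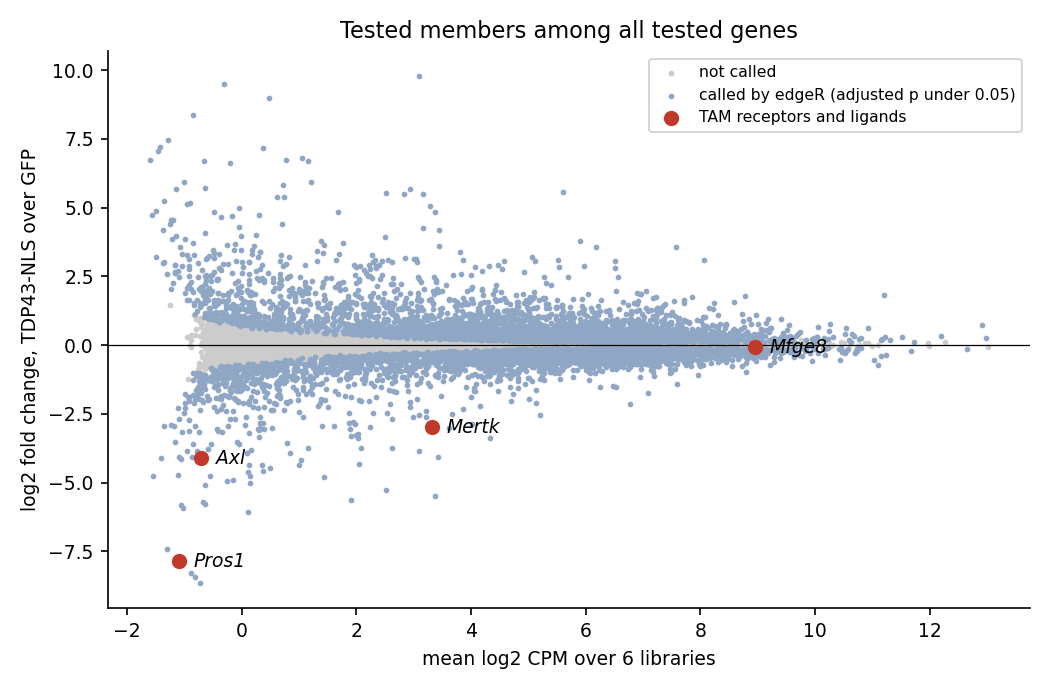
Log2 fold change of TDP43-NLS over GFP against mean log2 CPM for 13199 tested genes, with called genes in blue, others in grey and the 4 tested members in red. Mfge8 lies at -0.07 among the abundant genes, while Mertk at -2.97 and Axl at -4.10 lie well below 0, and the fitted value of Pros1 depends on the prior count because its TDP43-NLS libraries hold 0 reads.

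The nearest tested genes on each side of Mertk, Axl and Pros1 had log2 fold changes between -0.37 and 0.22. Anapc1, which encodes a subunit of the anaphase-promoting complex, lies 11565 bases before Mertk and had 382 ± 10.4 CPM in the TDP43-NLS libraries and 383 ± 6.58 CPM in the GFP libraries (SD, n = 3 each), and was not called. Tmem87b, 15224 bases beyond Mertk, fell by 0.37 on the log2 scale, to 49.2 ± 2.37 CPM in the TDP43-NLS libraries against 63.6 ± 1.52 CPM in the GFP libraries (SD, n = 3 each). Over the 24 tested genes within 1 Mb of Mertk, 5 rose and 7 fell, with a median of -0.03. Over all tested genes 28.2% were called lower and 29.3% higher, the background for such counts here and below. The highest of the genes around Mertk was Il1b, the interleukin-1 beta gene, which rose by 3.99. The lowest was Gm10762, at -1.42.

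Around Axl genes were called in both directions, while only 1 gene within 1 Mb of Pros1 was called, and it was lower. Hnrnpul1, 2516 bases from Axl, fell by 0.22 on the log2 scale, and Cyp2s1, 13770 bases away on the other side, had a log2 fold change of 0.22 that was not called. Of 28 tested genes within 1 Mb of Axl, 9 rose and 7 fell. Only 3 tested genes lie within 1 Mb of Pros1, of which 1 fell, and their values ran from -0.34 to 0.16 on the log2 scale. Within 2 Mb of Pros1, 4 of 7 tested genes fell and 0 rose, with a median of -0.29. Arl13b, a ciliary GTPase gene 7267 bases before Pros1, had 9.004 ± 0.652 CPM in the TDP43-NLS libraries and 8.03 ± 0.393 CPM in the GFP libraries (SD, n = 3 each) and was not called. The nearest tested gene on the other side, 4930453N24Rik at 1822405 bases, fell by 0.31 on the log2 scale. Chromosome 16 as a whole was lower, with 204 of its 398 other tested genes lower and 71 higher and a median of -0.21. On chromosome 2 the median of 1062 other genes was -0.04 and on chromosome 7 that of 999 genes was 0.06.

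The nearest tested genes on both sides of Mfge8 rose, while more of the genes within 1 Mb fell than rose. Isg20, an interferon-induced exonuclease gene 213372 bases away on the side of lower coordinates, rose by 1.54 on the log2 scale, and Abhd2, a lipase gene 124139 bases away on the other side, by 0.44. Of 20 tested genes within 1 Mb of Mfge8, 9 fell and 3 rose, with a median of -0.16 that was 0.00158 within 0.5 Mb and 0.0447 within 2 Mb. Around Gas6, Tfdp1 fell by 0.18 and Rasa3 was not called at 0.06.

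**Figure D4:**
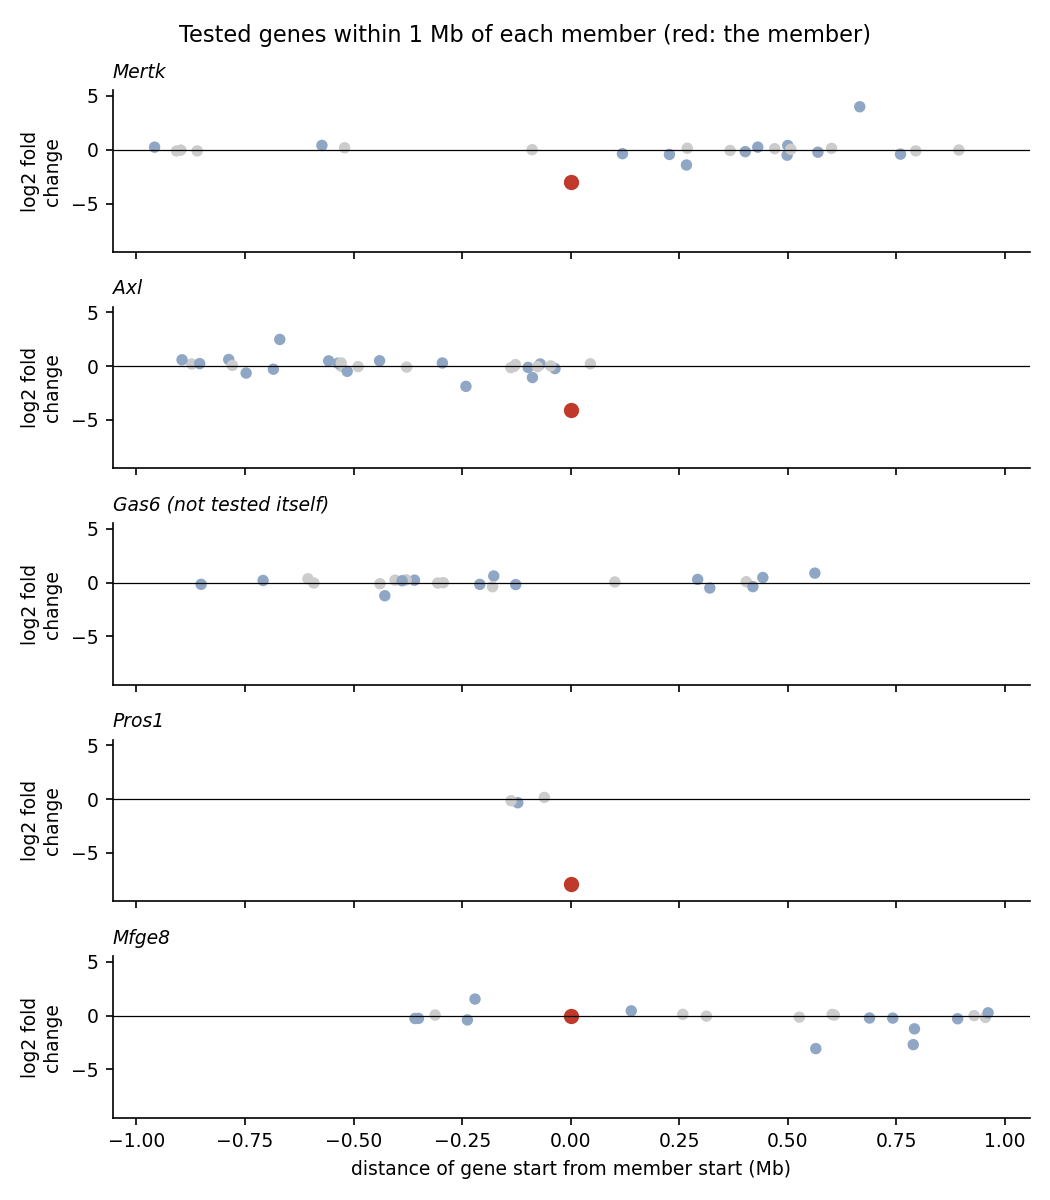
Log2 fold change of TDP43-NLS over GFP for tested genes within 1 Mb of each member, against the distance between gene starts in Mb, with called genes in blue, others in grey and the member in red (Gas6 was not tested). Mertk, Axl and Pros1 lie below every tested gene around them, while genes around Mfge8 reach -3.07 and Mfge8 itself is at -0.07. The members were proposed from this contrast, so nothing is read from their place among these genes. The red point of Pros1 is a fitted value that is no bound.

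Transcripts whose profiles over the 6 libraries were among the closest to each member, by Euclidean distance of gene-centred log2 CPM, were as follows. For Mertk they were Arhgap15 (distance 0.176), with 1.598 CPM in the TDP43-NLS libraries and 12.8 CPM in the GFP libraries, and Kif7 (0.247), with 1.22 and 10.3 CPM. Arhgap15 lies on chromosome 2 as Mertk does, and Kif7 starts 0.564 Mb from the start of Mfge8. For Axl, Trim63 (0.785) is given, with 0.0759 CPM in the TDP43-NLS libraries and 2.37 CPM in the GFP libraries. For Pros1 they were Mexis (0.398), with 1.62 and 21.8 CPM, and Armcx3 (0.465), with 0.397 and 6.20 CPM. For Mfge8 they were Cox15 (0.0202), with 63.2 and 66.1 CPM, and Glul (0.0254), with 143 and 149 CPM. The matches of Axl and Pros1 are looser, and few reads set those profiles. The log2 CPM carry a prior count of 2, which narrows the gap of genes with few reads. The cause of the looser matches was not tested. The closest genes were picked by these same profiles, so a like difference between the groups follows from that choice. Any link with their positions was not tested.

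Around the members, 10 lists of genes of the efferocytosis pathway were described. They hold 127 tested genes, of which 49 rose and 47 fell, with a median log2 fold change of 0.00. Over all tested genes the called share was 57.5% and the median 0.00. Where the mean level was 10 CPM or more, 74.6% of 114 list genes and 63.7% of all 8950 genes were called. The lists therefore moved both ways, with no common direction.

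The integrin receptors that recognise Mfge8 moved apart. Itgb3, the beta-3 chain that pairs with alpha-v, rose to 10.4 ± 0.231 CPM in the TDP43-NLS libraries, against 1.40 ± 0.489 CPM in the GFP libraries (SD, n = 3 each, log2 fold change 2.90), with no overlap between the groups. Itgb5, the beta-5 chain, and Itgav, alpha-v itself, fell by 1.01 and 0.52 on the log2 scale. Itgb5 lies on chromosome 16, which was lower as a whole, and the part of this in its fall was not tested. Edil3, a secreted homologue of Mfge8, rose to 24.7 ± 0.290 CPM in the TDP43-NLS libraries, against 5.51 ± 0.546 CPM in the GFP libraries (SD, n = 3 each, log2 fold change 2.17). Cd36, a scavenger receptor that also binds dying cells, rose to 44.6 ± 1.74 CPM in the TDP43-NLS libraries, against 6.25 ± 0.958 CPM in the GFP libraries (SD, n = 3 each, log2 fold change 2.83). Of 19 tested genes in this list of other receptors and bridging molecules, 5 rose and 10 fell, with a median of -0.13. Leaving out each library in turn, 5 to 7 rose and 8 to 12 fell. Stab1 and Cd300lf also rose, by 1.17 and 1.24 on the log2 scale. Among those that fell were the lipid receptor Trem2, by 0.33, and the complement chains C1qb and C1qc, by 0.37 and 0.65. The complement chain C1qa, with 40 reads in the TDP43-NLS libraries and 62 in the GFP libraries, was not called. Timd4 and Havcr1, direct receptors of phosphatidylserine, had 0 reads in every library. Itgav, Itgb5, Stab1, Cd300lf, Trem2, C1qa, C1qb and C1qc were named after their values were seen.

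Downstream of the receptors, 9 of 18 tested genes of the engulfment machinery rose and 6 fell, with a median of 0.15. Vav1, an activator of Rac, rose to 289.6 ± 5.46 CPM in the TDP43-NLS libraries, against 158 ± 3.71 CPM in the GFP libraries (SD, n = 3 each, log2 fold change 0.87). Bcar1, an adaptor of focal adhesions, rose by 1.92 and Abca7, a lipid transporter, by 0.65. Among 14 transducers that TAM receptors use, 4 rose and 7 fell. The kinases Lyn and Src rose by 0.83 and 0.53 on the log2 scale, and Pik3r1, the regulatory subunit of PI 3-kinase, fell by 0.54.

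The feedback arm through which TAM receptors restrain cytokine signals had 2 of 7 tested genes higher and 2 lower. Socs3, an inhibitor of JAK kinases, rose to 69.0 ± 3.32 CPM in the TDP43-NLS libraries, against 21.7 ± 3.08 CPM in the GFP libraries (SD, n = 3 each, log2 fold change 1.67). Ifnar1 and Ifnar2, the chains of the interferon receptor with which TAM receptors associate, fell by 0.27 and 0.43, and both lie on chromosome 16. Socs1 had 1.53 ± 0.539 CPM in the TDP43-NLS libraries and 0.947 ± 0.287 CPM in the GFP libraries (SD, n = 3 each) and was not called. Twist1 and Twist2, induced by Axl in other settings, had 0 reads.

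Of 20 genes listed as regulators of Mertk or Axl transcription, 6 rose and 9 fell. Rxra, the partner of the liver X receptors that induce Mertk in macrophages, fell by 0.50 on the log2 scale, Nr1h2, a liver X receptor, rose by 0.38, and Nr1h3, the other, was not called at -0.20. Tgfbr1, a receptor of TGF-beta, fell by 0.78 to 19.5 ± 1.63 CPM in the TDP43-NLS libraries, against 33.5 ± 1.21 CPM in the GFP libraries (SD, n = 3 each). Ppard, a nuclear receptor of fatty acids, rose by 0.69, and Fos, a subunit of AP-1, rose by 0.65. Sp1, whose binding letters are in all 6 windows, had 116 ± 0.909 CPM in the TDP43-NLS libraries and 117 ± 5.46 CPM in the GFP libraries (SD, n = 3 each). Rxra, Nr1h2, Nr1h3 and Sp1 were named after their values were seen.

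Genes that act on the members' proteins were also examined. Of 4 tested genes of receptor shedding, 3 rose and 1 fell. Adam17, the main protease that releases the Mertk ectodomain, rose by 0.24 on the log2 scale, and Rhbdf2, which carries it to the surface, by 0.89. Furin, which activates such proteases, rose by 0.44, and Adam10, a related protease, fell by 0.46. Of the enzymes for vitamin K dependent carboxylation, Ggcx, the carboxylase that modifies Gas6 and protein S, had 15.9 ± 0.255 CPM in the TDP43-NLS libraries and 14.9 ± 1.81 CPM in the GFP libraries (SD, n = 3 each) and was not called. In that list 3 of 5 tested genes rose and 0 fell. Nqo1, a quinone reductase, rose by 3.68, Aifm2, which reduces vitamin K, by 0.60, and Calu, an inhibitor of the carboxylase, by 0.30. Few Nqo1 reads were counted: 2, 3 and 5 under the GFP label, against 35, 43 and 55 under the TDP43-NLS label. With no GFP library at 10 reads, Nqo1 passed the filter by its TDP43-NLS counts alone, so it could only appear as higher. Adam17 and Ggcx were named after their values were seen.

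The remaining lists concern the dying cell and the fate of the engulfed cargo. Of 9 tested genes of phosphatidylserine exposure, 5 rose and 2 fell. This count rests on small differences: 2 rose with DESeq2 or with library totals as the scaling, 2 without GFP replicate 1, and 3 without GFP replicate 3, TDP43-NLS replicate 2 or TDP43-NLS replicate 3. The genes that fell numbered 1 without GFP replicate 1, GFP replicate 3, TDP43-NLS replicate 1 or TDP43-NLS replicate 2. In this list Plscr3, a phospholipid scramblase gene of mitochondria, rose by 0.57, Atp11a, a flippase, rose by 0.20 and Ano6, a calcium-activated scramblase, fell by 0.49. Of 12 tested genes of find-me and don't-eat-me signals, 6 rose and 4 fell. P2ry2 and Cx3cr1, receptors for nucleotides and fractalkine, rose by 1.05 and 0.77, and Panx1, the channel that releases nucleotides, fell by 0.70. Of 19 tested genes of LC3-associated phagocytosis and phagosome maturation, 6 rose and 6 fell. Leaving out each library in turn, 5 to 6 rose and 4 to 7 fell. Rubcn, which directs LC3 to phagosomes, fell by 0.63, while the early endosome GTPase Rab5a and the protease Ctsl rose by 0.46 and 0.52 on the log2 scale. Rubcn also lies on chromosome 16, and the part of this in its fall was not tested.

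**Figure D5:**
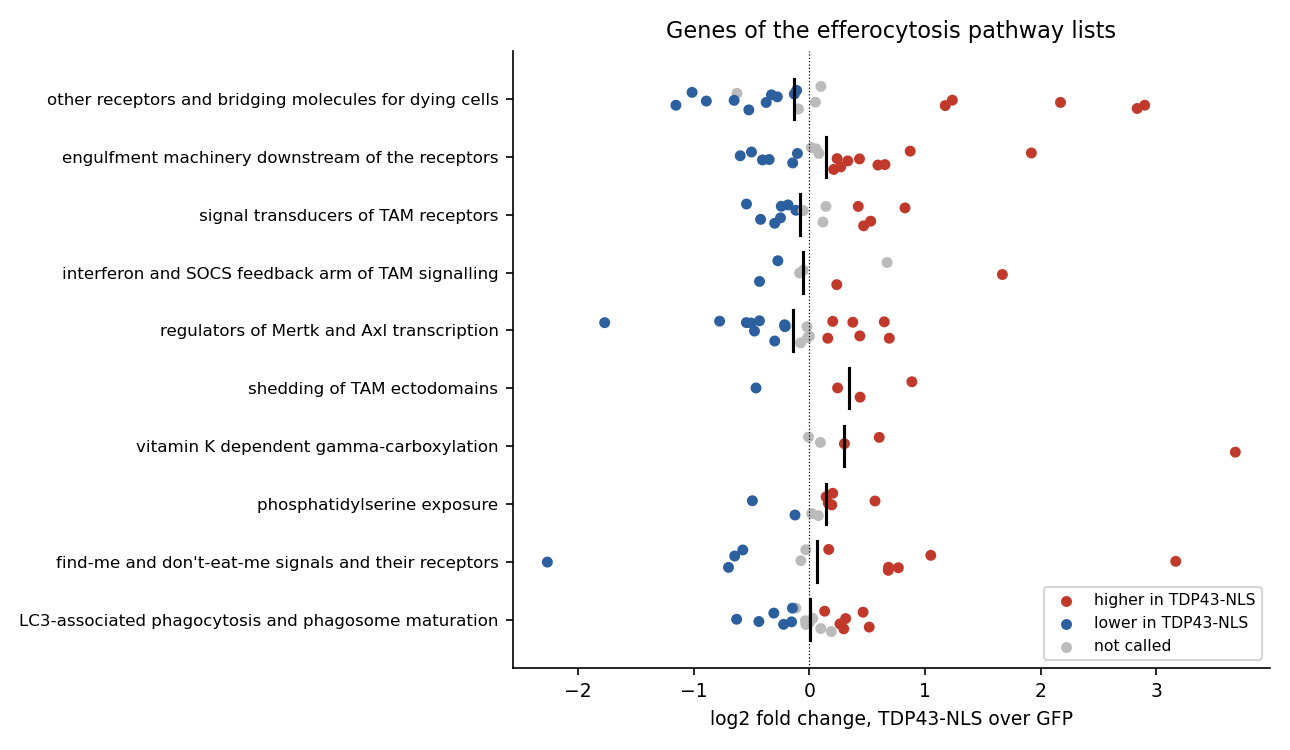
Log2 fold change of TDP43-NLS over GFP for each tested gene of the 10 lists, with genes that rose in red, genes that fell in blue, genes that were not called in grey and the median of each list as a black bar. Every list has genes on either side of 0, and the medians lie between -0.14 and 0.34.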

How the data were processed

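RNA of BV2 cells was sequenced after poly(A) selection with a NEBNext Ultra kit, per the labels' protocols, with no strand-marking step described. The authors deposited whole-number counts of reads per gene and FPKM, which scale these counts by gene length and library total. Bowtie2 2.2.3, HISAT2 2.1.0, HTSeq 0.6.0 and the build GRCm39 are listed in the submitters' processing notes, with no role or order. The strand setting and the handling of reads that match several genes are not given in the sources used here.

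Deposited counts were tested with edgeR 4.0.16 in R 4.3.3: filterByExpr at its defaults (10 reads, 15 in total), TMM scaling, and the two-sided quasi-likelihood test with the group as the only term. A gene is said to have risen or fallen at a Benjamini-Hochberg adjusted p under 0.05 over all 13199 tested genes. A standard error is the log2 fold change divided by the square root of F. The step was tested on simulated data in which only a small part of the genes changed, unlike the larger share called here. That setting says nothing of the scaling or of false calls where most genes differ. DESeq2 1.42.0, limma 3.58.1 on log2(FPKM + 1), other scalings, filters and designs were tried as alternatives.

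The members and lists were chosen with earlier results of these data known. Named are the 6 members, Tardbp, up to 3 called genes of each list with the largest change and a mean of at least 1 CPM, the nearest tested gene on each side of a member, and the 2 genes closest to each tested member in profile, leaving out clone-like names. Other genes were chosen after their values were seen. One gene that this rule names is not reported here.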

Additional observations from a re-analysis of the deposited data

How the results depend on the processing

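The members were proposed from this contrast, and Axl and Pros1 passed the filter through the GFP libraries alone, so their direction under the alternatives says nothing of stability. Leaving out each library in turn gave log2 fold changes of -3.03 to -2.91 for Mertk, -4.72 to -3.62 for Axl and -0.07 to -0.05 for Mfge8. On log2(FPKM + 1) with limma the value was -2.05 for Mertk, and without a filter -0.42 for Axl and -0.51 for Pros1, since the pseudocount understates the change of low genes. Pros1 and Axl were not tested with limma on filtered FPKM, since their mean is under 0.5 FPKM. Mfge8 was called lower under library totals as the scaling (-0.10), and with limma on log2(FPKM + 1), on log2(FPKM + 0.1) and without a filter (-0.10 each), and was not called under the other alternatives. The FPKM carry the library totals as their scaling. Tested against a log2 fold change of 0.5, 1221 genes rose and 744 fell over all genes, and 19 rose and 9 fell in the lists, since small changes no longer count. Of the genes named by rule, Pik3r1, Src, Ifnar1, Ifnar2, Fos, Adam10, Furin, Calu, Ano6, Plscr3, Atp11a, Rab5a and Ctsl lost their call there, and Atp11a also with limma without a filter. The median over the genes around Axl, 0.05 within 1 Mb, was -0.0407 within 0.5 Mb and -0.00246 within 2 Mb, and that around Mfge8, -0.16, was 0.00158 and 0.0447. The cause was not tested. Same-numbered libraries did not deviate together (correlations of -0.15, 0.02 and 0.11 over 9924 genes), so the numbers were not taken as pairs. With the replicate block, 3848 genes rose and 3680 fell, and Mertk had -2.98, Axl -4.12, Pros1 -7.84 and Mfge8 -0.07. The fitted values of Pros1 rest on the prior count. At this depth Gas6 and Tyro3 cannot be compared.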
